A study of Mus musculus with 18 samples.

Results

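The 7 genes described here are the signalling protein Sonic hedgehog (Shh), its upstream factor Hand2, its receptor Ptch1, its antagonist Hhip and the transcription factors Gli1, Gli2 and Gli3. They were taken by symbol from a fixed list, and all 7 were listed in each of the 3 deposited tables, which together hold 14686 genes. RNA had been sequenced from whole mouse limb buds in 6 groups of 3 libraries, 18 in all. Forelimb buds at e10.5 (embryonic day) and hindlimb buds at e11.0 came from wild type embryos of CD1, an outbred stock, a pairing by the shape of the bud rather than by age. Hindlimb buds of Pitx1 wild type and Pitx1 null embryos, all labelled strain BALB/c, were compared at e11.0 and at e11.5. Pitx1 is a homeodomain factor of the hindlimb, no other allele or agent is named for any group, and the structure of the null allele is not given in the sources used here. Libraries at e10.5 and e11.0 were ribosomal depleted and those at e11.5 were mRNA enriched, so levels are compared only within a table. Nothing in the labels says that replicates of a group are different litters. A p-value therefore speaks of how far these libraries spread, and that spread may be technical.

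Shh is secreted by the zone of polarizing activity, a small group of mesenchyme cells at the posterior margin of the limb bud, and patterns the digits from the little-finger side to the thumb side. Without ligand the receptor Ptch1 holds the membrane protein Smo inactive, and Gli3 is cut to a repressor, with Gli2 to a lesser degree. Ligand binding to Ptch1 frees Smo in the primary cilium, the cutting stops, and full-length Gli2 and Gli3 turn on targets that include Gli1, Ptch1 and Hhip. Gli1 is made only as an activator, while Ptch1 and Hhip bind and hold back the ligand, a negative feedback. Hand2, a basic helix-loop-helix factor of the posterior mesenchyme, activates Shh, and Hand2 and the anterior Gli3 repress each other before Shh starts.

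Libraries held 17.4 to 53.6 M reads on the genes of their table (M, 1000000). Pitx1 itself followed the labels, at 0.266 to 0.462 CPM (read counts scaled to a total of 1000000) in the forelimb libraries against 183 to 223 in CD1 hindlimb. In the null it was 19.3 to 22.9 against 114 to 136 in wild type at e11.0, and 72.1 to 88.6 against 319 to 364 at e11.5, so reads on Pitx1 remained in the null libraries. Replicates 1 and 2 of every group came from the same sequencing run and replicate 3 from another, or, in CD1, from one that the titles do not name. At e11.5, replicate 3 was also the only unstranded library of each group. The difference between runs was larger than that between groups for 78.5% of genes in the CD1 table, 65.0% at e11.0 and 72.0% at e11.5, so the fits hold a term for the run. Mesenchyme markers were abundant in every library, with a summed level of 835 to 2117 CPM over 8 genes such as Prrx1 and Msx1. Of 10 markers of other embryonic tissues that make Shh (notochord, floor plate, gut), only Sox17, which endothelium also expresses, was listed, at 3.19 to 7.61 CPM, and it passed the test in no comparison. The tables hold genes that passed 0.5 CPM in 3 or more libraries, and the other markers, Foxa2 and T among them, are not among the genes listed.

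The 7 genes lie on 5 chromosomes of the GRCm38 build, with gene models from GENCODE. Shh (ENSMUSG00000002633) spans chromosome 5 from 28456815 to 28467256 on the minus strand. Hand2 (ENSMUSG00000038193) spans chromosome 8 from 57320983 to 57324633 on the plus strand, and Hhip (ENSMUSG00000064325) the same chromosome from 79965851 to 80058006 on the minus strand. Ptch1 (ENSMUSG00000021466), on chromosome 13 from 63508328 to 63573598 on the minus strand, lies 7.67 Mb from Pitx1. Gli3 (ENSMUSG00000021318), on the same chromosome from 15463235 to 15730026 on the plus strand, lies 40.1 Mb from it. Gli1 (ENSMUSG00000025407) is on chromosome 10 from 127329882 to 127341974 and Gli2 (ENSMUSG00000048402) on chromosome 1 from 118834132 to 119053619, both on the minus strand. Values are read counts over whole genes, exons as the annotation joins them, with no split by isoform. Whether counting used strand is not given in the sources used here, and an opposite-strand gene, Hand2os1, covers 19.6% of the exonic bases of Hand2. Other opposite-strand genes cover 15.7% and 12.7% of the exonic bases of Shh (9530036O11Rik and Gm26894) and at most 5.31% of those of Gli1, Gli3 and Hhip.

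Sequences upstream of the start were matched in RefSeq (GRCm38.p6) for 5 of the 7 genes, Hand2, Ptch1, Gli2, Gli3 and Hhip. Those of Hand2, which passed the test in 2 comparisons, and Hhip, which passed in none, are shown because their base composition is unlike, each as the 250 bases before the start, 5′ to 3′ on the gene's own strand. Capitals mark E-boxes (CANNTG), the letters that factors of the basic helix-loop-helix class, such as Hand2, can bind.
Hand2, chr8:57320733-57320982, plus strand: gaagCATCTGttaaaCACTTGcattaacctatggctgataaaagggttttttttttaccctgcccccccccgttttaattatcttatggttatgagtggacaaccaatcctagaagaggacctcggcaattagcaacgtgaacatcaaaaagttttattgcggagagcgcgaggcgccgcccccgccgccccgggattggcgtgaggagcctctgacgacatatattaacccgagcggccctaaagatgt
Hhip, chr8:80058009-80058258, minus strand: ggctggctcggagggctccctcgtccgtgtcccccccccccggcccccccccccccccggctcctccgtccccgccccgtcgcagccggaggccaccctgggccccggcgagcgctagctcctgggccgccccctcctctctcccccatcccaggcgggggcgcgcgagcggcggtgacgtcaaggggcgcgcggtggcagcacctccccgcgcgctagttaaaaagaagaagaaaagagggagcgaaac
The Hand2 stretch has 49.2% G and C and 2 E-boxes, both near its 5′ end, and the Hhip stretch has 76.0% G and C and none. The median over 32851 mouse windows of this length was 52.4% G and C, and 66.2% of them hold an E-box on either strand. The Gli core GACCACCCA and the Pitx letters TAATCC were in none of the 5 stretches on either strand, and are in 0.225% and 6.25% of all windows. The stretches of Ptch1 and Gli3 lie inside the gene spans given above, because the RefSeq starts used fall within those spans. All these counts describe letters in a short window and are no sign of binding or of its absence.

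Levels were first ordered within each group as CPM per kb of exon, the scale on which genes of different length can be set side by side. Hand2 was the highest of the 7 genes in all 6 groups and Gli3 second, with means of 24.5 to 89.7 and 12.7 to 32.2 CPM per kb. The libraries of these neighbours overlapped only in CD1 forelimb, where Hand2 ran from 32.4 to 49.3 and Gli3 from 17.4 to 40.7 CPM per kb. Shh was sixth in every group, at 1.59 to 5.91 CPM per kb, and Hhip last, at 0.565 to 0.860, each apart from its neighbours. The feedback receptor Ptch1 and the factors Gli2 and Gli1 lay between them and mostly overlapped. In the groups at e10.5 and e11.0 the means ran in the order Ptch1, Gli2, Gli1, and only in null hindlimb at e11.0 was Ptch1 (6.55 to 8.34) above every Gli2 library (3.32 to 4.62). In wild type at e11.5 the order was Gli2 (15.8 to 20.6 CPM per kb), Ptch1 (12.4 to 13.7) and Gli1 (7.81 to 20.7), with the first of these apart from Ptch1. In null hindlimb at e11.5 Gli3, Gli2, Gli1 and Ptch1 each overlapped the next.

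**Figure D1:**
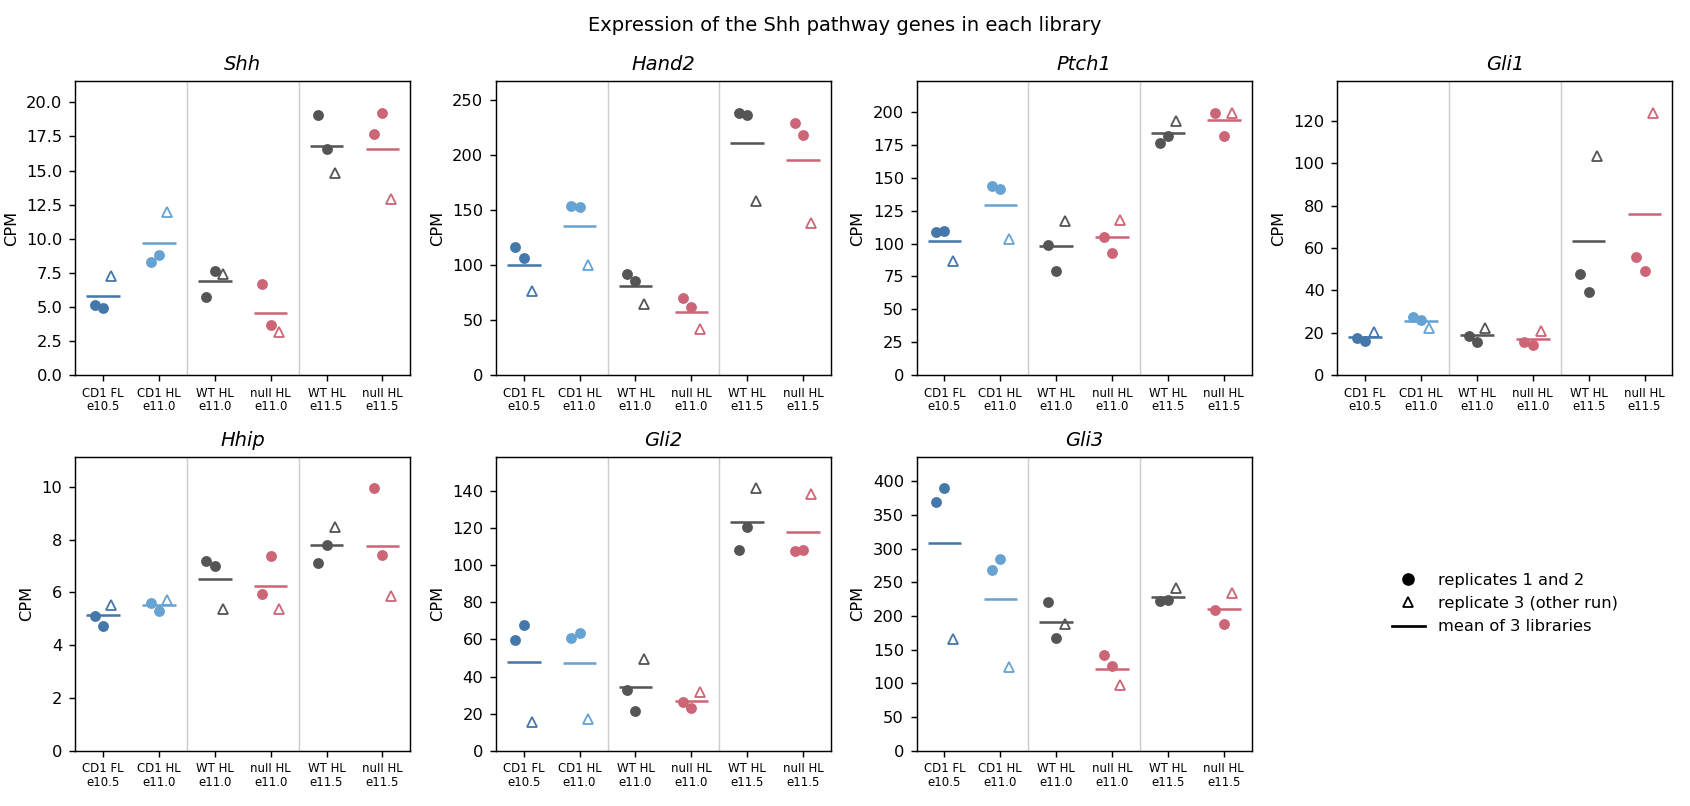
Deposited CPM of the 7 genes in each library (vertical axis, linear from 0, a scale per gene) by group (FL, forelimb; HL, hindlimb), 3 libraries per group with filled marks for replicates 1 and 2 and open marks for replicate 3, and a bar for the group mean. Grey lines part the 3 separately normalized tables. Gli2 and Gli3 replicate 3 sit below the other 2 libraries in both CD1 groups, and Gli1 replicate 3 sits above them in both e11.5 groups.

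Some of the 7 genes differed more between runs than between groups. Gli2 was at 59.7 and 67.8 CPM in CD1 forelimb replicates 1 and 2 and at 15.7 in replicate 3, and at 60.9, 63.3 and 17.2 in hindlimb. The mean of replicates 1 and 2 was thus 4.06-fold above replicate 3 in forelimb and 3.61-fold in hindlimb for this gene, and 2.28-fold and 2.23-fold for Gli3. Gli1 ran the other way at e11.5, 2.38-fold higher in replicate 3 of wild type and 2.37-fold in that of the null. Hand2 was 1.37 to 1.61 times higher in replicates 1 and 2 than in replicate 3 in each of the 6 groups. In each case both groups of a table moved alike. For several genes below, differences are therefore given within replicates 1 and 2 and within replicate 3 as well as from the fit.

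In CD1 embryos the Shh signal and 2 of its direct targets were higher in hindlimb buds and Gli3 was lower. Shh, Hand2, Ptch1 and Gli1 rose and Gli3 fell, 5 of 7 genes, while Gli2 and Hhip did not pass the test. Over the whole table limma called 5.87% of 13540 genes at an adjusted p under 0.05 (2.41% higher and 3.46% lower). Shh and Gli1, 2 of 7, had groups apart over all libraries (11.2% of all genes), and 6 of 7, all but Gli2, within each run (37.0%). The authors' deposited table calls the same 5 genes, where it calls 12.5% of all genes. The median difference of the 7 genes was 0.34 on the log2(CPM + 1) scale, against 0.01 over all genes. Every forelimb library is from e10.5 and every hindlimb library from e11.0, so limb type and age cannot be told apart. In whole buds, neither can fewer cells of a type and less RNA per cell.

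The ligand Shh was at 5.12, 4.94 and 7.28 CPM in the forelimb libraries (replicates 1 to 3) and at 8.28, 8.79 and 11.96 in the hindlimb libraries. Every hindlimb library was above every forelimb library, and replicate 3 was the highest of both groups. The means were 5.78 ± 1.30 and 9.68 ± 2.0 CPM (SD, n = 3), a fold of 1.67. The fitted log2 difference was 0.66 ± 0.08 (SE; adjusted p = 0.00105, limma), with 0.66 within replicates 1 and 2 and 0.65 within replicate 3.

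Hand2, which acts upstream of Shh, was at 116, 106 and 76.3 CPM in forelimb and 154, 153 and 99.6 in hindlimb. Within each run hindlimb was higher, while over all libraries hindlimb replicate 3 lay below the forelimb replicates 1 and 2. The log2 difference was 0.43 ± 0.05 (adjusted p = 0.000731, limma). The opposite-strand gene Hand2os1 also rose, from 10.9 to 16.1 CPM (0.61 ± 0.12, adjusted p = 0.0169, limma).

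The receptor and feedback gene Ptch1 was at 109, 109.7 and 86.8 CPM in forelimb and 144, 142 and 104 in hindlimb. Again the groups were apart within each run and overlapped across runs. Its log2 difference was 0.34 ± 0.05 (adjusted p = 0.00206, limma). Gli1, the activator that the pathway itself induces, was at 17.5, 16.1 and 20.1 CPM in forelimb and 27.4, 26.1 and 22.4 in hindlimb. All hindlimb libraries were above all forelimb libraries, but replicate 3 was the highest in forelimb and the lowest in hindlimb. The log2 difference of Gli1 was 0.48 ± 0.10 (adjusted p = 0.0195, limma), 0.64 within replicates 1 and 2 and 0.15 within replicate 3. This call was lost without forelimb replicate 2 (adjusted p = 0.0678), hindlimb replicate 1 (0.112) or hindlimb replicate 2 (0.0885).

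Gli3, the main source of repressor in the limb bud, was the only one of the 7 genes that fell in CD1 hindlimb. It was at 369.8, 390.0 and 166 CPM in forelimb and at 268, 285 and 124 in hindlimb. Hindlimb was lower within each run, and forelimb replicate 3 lay among the hindlimb values. The log2 difference was -0.45 ± 0.05 (adjusted p = 0.000481, limma), with -0.46 within replicates 1 and 2 and -0.42 within replicate 3. Gli2, with means of 47.7 and 47.1 CPM, differed by 0.02 ± 0.07 (adjusted p = 0.894, limma), with opposite signs in the 2 runs (-0.04 and 0.13). The ligand-binding antagonist Hhip was at 4.73 to 5.53 CPM in forelimb and 5.28 to 5.71 in hindlimb and differed by 0.09 ± 0.09 (adjusted p = 0.564, limma).

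Because Hand2 and Gli3 mark the posterior and the anterior bud and repress each other, their ratio was computed in each library from CPM per kb. It was 1.28, 1.11 and 1.87 in CD1 forelimb and 2.34, 2.18 and 3.28 in CD1 hindlimb. Every hindlimb library exceeded every forelimb library, also across runs, with means of 1.42 ± 0.40 and 2.60 ± 0.59 (SD, n = 3). The ratio is a description from 2 genes that each passed the test, and 3 libraries a group are too few for an exact test of it at the threshold of 0.05.

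Of 8 mesenchyme markers 5 fell in CD1 hindlimb, namely Hoxd9 (-1.09), Fgf10 (-0.39), Pdgfra (-0.29), Twist1 (-0.23) and Lmx1b (-0.23). Prrx1 (-0.17), Prrx2 (0.01) and Msx1 (0.23) did not pass. The summed levels were 1305 to 1651 CPM in hindlimb and 1436 to 1933 in forelimb, and overlapped. With the block 3 of the 8 passed, and without single libraries 2 to 5 did. Of other marker lists, the muscle precursor genes Pax3 (-0.61 ± 0.07) and Lbx1 (-0.55 ± 0.07) fell, 2 of 4 listed. The globin genes Hba-a1 (0.45 ± 0.07) and Hbb-y (0.40 ± 0.08) rose, 2 of 6 erythroid markers. Isl1, held in the nerve list and also a factor of the early hindlimb field, rose by 2.77 ± 0.10. Shares of the mesenchyme sum are a measure added after the values had been seen. Hand2 was 6.0%, 5.55% and 5.31% of this sum in forelimb and 9.44%, 9.24% and 7.63% in hindlimb. Shh on this scale was 0.265%, 0.258% and 0.507% in forelimb and 0.508%, 0.532% and 0.916% in hindlimb, so neither gene's groups overlapped. Gli3 was 19.1%, 20.3% and 11.6% of the sum in forelimb and 16.4%, 17.3% and 9.50% in hindlimb, lower within each run and overlapping across runs. The part of cell makeup in these differences was not tested further.

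**Figure D2:**
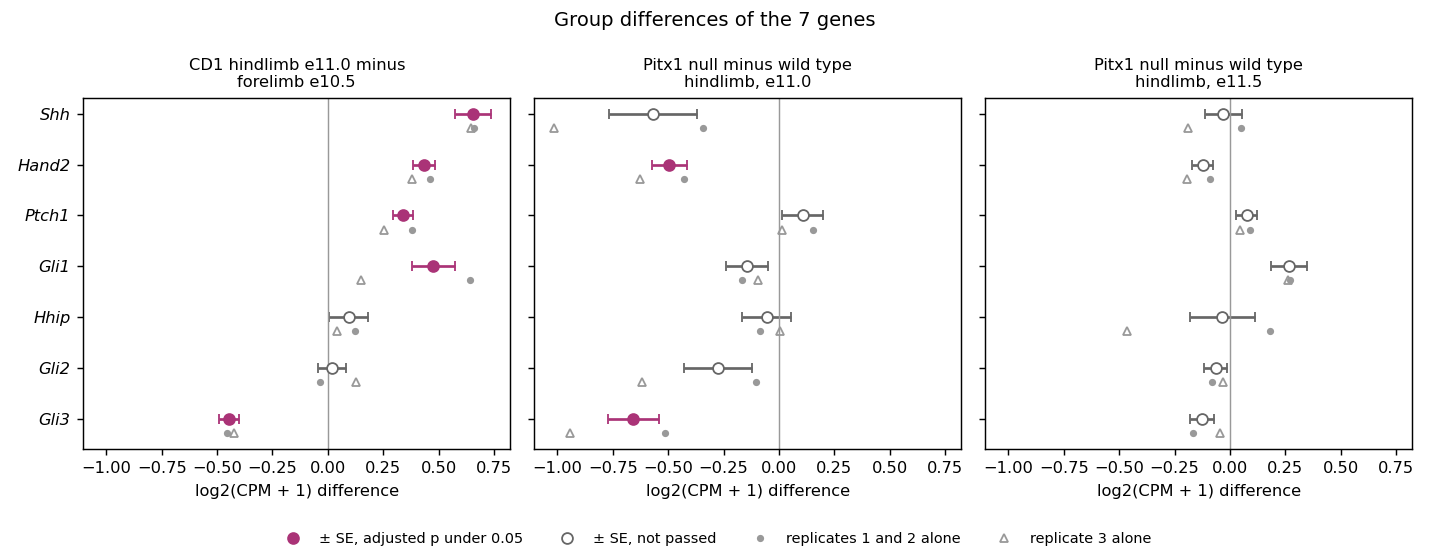
Group differences of the 7 genes on the log2(CPM + 1) scale (horizontal axis) in the 3 comparisons, as the limma value ± SE with filled circles where the adjusted p was under 0.05. Small dots show the difference within replicates 1 and 2 and triangles that within replicate 3. In CD1, 4 filled circles lie to the right of 0 and the filled circle of Gli3 to the left. In the null at e11.0 the filled circles are Hand2 and Gli3, both to the left.

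Other genes of the pathway were counted by list, beside 2.41% of all genes higher and 3.46% lower. Of 13 limb genes that act downstream of Shh or Gli3, 5 rose and 2 fell, with a median of 0.17. Those that rose were Hoxa13, a factor of the hand and foot plate (1.93 ± 0.13, from 11.3 to 44.9 CPM), Sall1 (0.82 ± 0.06), the Notch ligand Jag1 (0.48 ± 0.05), Hoxd12 (0.39 ± 0.08) and Grem1, the Bmp antagonist that keeps the Shh and Fgf loop running (0.35 ± 0.07). Those that fell were Tbx3 (-0.47 ± 0.05) and Mycn (-0.28 ± 0.06). Without single libraries the counts of this list ran from 4 to 7 higher and from 1 to 3 lower. Among 6 co-receptors and membrane binders, Cdon, a co-receptor that Shh signalling represses, fell by 0.48 ± 0.06, and none rose.

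Of 4 genes for ligand lipidation and release, Scube1, a secreted carrier of the ligand, rose by 0.28 ± 0.05. None of 8 genes for signal transduction at the membrane (Smo at 290.2 and 298 CPM), of 9 kinases and partners that regulate Gli proteins, or of 12 cilium genes passed the test in CD1. Of 11 measured genes that regulate Shh or act with it, Hoxd10 (-0.64 ± 0.06) and Twist1 (-0.23 ± 0.05) fell, the latter not with the block (adjusted p = 0.0622, limma). Of 5 measured anterior genes that lie opposite to Shh, Pax1 (-1.39 ± 0.13, from 9.38 to 2.68 CPM) and Alx1 (-1.14 ± 0.11, from 13.1 to 5.36 CPM) fell.

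In Pitx1 null hindlimbs at e11.0 the upstream factor Hand2 and the repressor gene Gli3 fell together, while the targets Ptch1 and Gli1 did not pass the test. These were 2 of 7 genes, both lower, where 13.1% of 14027 genes were called in the table (4.73% higher and 8.41% lower). With the replicate number as a block, 3442 genes of the table were called in place of 1843, and of the 7 still Hand2 and Gli3 alone. Only Gli3 had groups apart over all libraries (18.5% of all genes), and Gli3 and Hand2 within each run (45.6%). The authors' deposited table calls 3 of the 7 lower, with Shh as the third, where it calls 20.6% of all genes. The median of the 7 genes was -0.27, against -0.07 over all genes. The split between higher and lower calls at e11.0 depends on the scaling. As deposited, 664 genes were higher and 1179 lower. A trimmed-mean scaling of the columns gave 1064 and 524, and a median-ratio scaling 1326 and 403. Hand2 and Gli3 passed under each of the 3.

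Gli3 was at 221, 167 and 188 CPM in the wild type libraries and at 143, 125.9 and 97.4 in the null. Every null library was below every wild type library, and the gap was wider in replicate 3. The means were 192 ± 27.4 and 122 ± 22.9 CPM (SD, n = 3), and the log2 difference was -0.66 ± 0.12 (adjusted p = 0.0106, limma), -0.52 within replicates 1 and 2 and -0.94 within replicate 3. Hand2 was at 91.8, 85.1 and 64.7 CPM in wild type and at 69.5, 61.8 and 41.5 in the null. The null was lower within each run, and wild type replicate 3 lay among the null values. Its log2 difference was -0.49 ± 0.08 (adjusted p = 0.00729, limma). Hand2os1 differed by 0.12 ± 0.12 (adjusted p = 0.486, limma). The calls of Gli3 and Hand2 were lost without wild type replicate 1 (adjusted p = 0.0959 and 0.0637, limma). They were also lost without wild type replicate 3 (0.0811 and 0.0676) or null replicate 3 (0.0818 and 0.0674). With replicates 1 and 2 alone they were lost as well (0.0779 and 0.0640). Apart from the first, these settings repeat the same contrast of replicates 1 and 2, because the run term takes up a lone replicate 3.

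Shh was at 5.71, 7.65 and 7.39 CPM in wild type and at 6.69, 3.697 and 3.15 in the null. Null replicate 1 lay within the wild type range, and the other two null libraries lay below it. The means were 6.92 ± 1.06 and 4.51 ± 1.91 CPM (SD, n = 3), and the log2 difference of -0.57 ± 0.20 did not pass (adjusted p = 0.0751, limma). The value was -0.34 within replicates 1 and 2 and -1.02 within replicate 3. Without null replicate 1 it was -0.83 (adjusted p = 0.00579, limma), the only pass among the 6 fits that each left out 1 library. In the others the adjusted p reached 0.375. In the authors' deposited table Shh differed by -0.76 with an adjusted p of 0.00701. Shh rests on few reads here, 75 to 317 per library.

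The direct targets Ptch1 and Gli1 did not pass. Ptch1 was at 99.2, 78.9 and 117 CPM in wild type and at 105, 92.9 and 118 in the null, and these ranges overlap. Its difference was 0.11 ± 0.09 (adjusted p = 0.419, limma). Gli1 was at 18.3, 15.4 and 22.2 CPM in wild type and at 15.6, 14.2 and 20.7 in the null, with replicate 3 the highest of both groups. Its difference was -0.14 ± 0.10 (adjusted p = 0.3, limma). Per kb, Gli1 was 0.524, 0.555 and 0.539 of Ptch1 in wild type and 0.422, 0.434 and 0.498 in the null, so that every null library lay below every wild type library. This ratio is a description, one of 4 computed in each table, and was not tested. Gli1 to Gli3, another of them, was 0.159, 0.178 and 0.227 in wild type and 0.209, 0.216 and 0.409 in the null. It was higher in the null within each run and overlapped across runs.

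Gli2 was at 21.2 to 49.2 CPM in wild type and 22.8 to 31.7 in the null and differed by -0.27 ± 0.15 (adjusted p = 0.222, limma). The value was -0.10 within replicates 1 and 2 and -0.62 within replicate 3. Without wild type replicate 2, the lowest of its group, Gli2 differed by -0.50 with an adjusted p of 0.0015 (limma). This was the only pass among the 6 fits that each left out 1 library, and in the others the adjusted p reached 0.744. Leaving out this library moved other genes too. Without it 8 Gli regulators passed as lower and 9 ectoderm markers as higher, against 4 and 5 with all libraries. Hhip was at 5.36 to 7.20 CPM in wild type and 5.39 to 7.39 in the null, a difference of -0.06 ± 0.11 (adjusted p = 0.744, limma), whose sign turned under both scalings. The Hand2 to Gli3 ratio, which set the CD1 groups apart, was 1.69, 2.08 and 1.41 in wild type and 1.99, 2.0 and 1.74 in the null, and overlapped.

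Markers of several cell types moved in the same null libraries. Mesenchyme markers had a summed level of 1145 to 1417 CPM in wild type and 835 to 1114 in the null, and 4 of 8 fell. Ectoderm markers summed to 330.1 to 815 CPM in wild type and 439.7 to 979 in the null, and 5 of 10 rose. Endothelium markers summed to 188 to 265 CPM and to 104 to 200 CPM, and 7 of 8 fell, 4 of them with either scaling. Muscle precursor markers summed to 83.5 to 94.7 CPM in wild type and to 64.6 to 72.1 in the null, with no overlap. Of 4 listed, 3 fell, namely Pax3 (-1.13 ± 0.13), Lbx1 (-1.01 ± 0.19) and Myf5 (-0.81 ± 0.13). Isl1, held in the nerve list, rose (0.50 ± 0.11). Without single libraries the counts ran from 0 to 7 lower for endothelium, 1 to 6 for mesenchyme and 1 to 4 for muscle, and from 1 to 9 higher for ectoderm. With the block 6 mesenchyme and 4 muscle markers were lower and 7 ectoderm markers higher. The part of cell makeup in the differences of the 7 genes was not tested. As a share of the mesenchyme sum, Gli3 was 15.6%, 12.3% and 16.4% in wild type and 12.9%, 11.3% and 11.7% in the null. Hand2 was 6.48%, 6.27% and 5.65% in wild type and 6.26%, 5.55% and 4.97% in the null. On this scale Hand2 was lower within each run, while Gli3 overlapped between the groups in replicates 1 and 2. Both overlapped across runs, and no test was made.

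**Figure D3:**
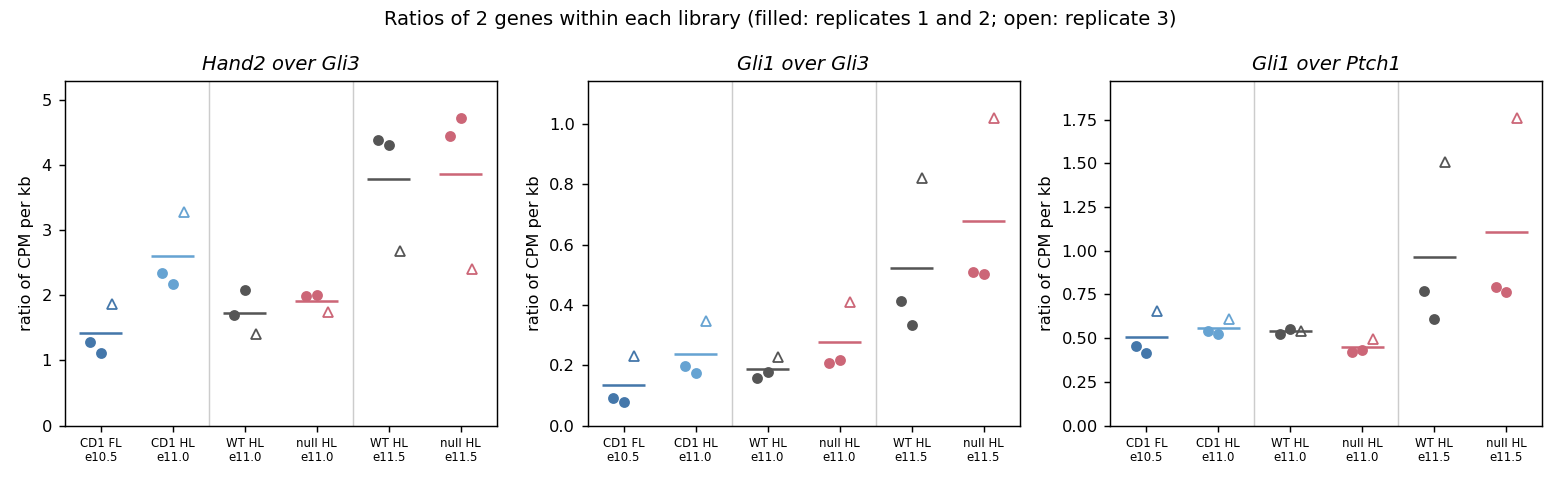
Ratios of CPM per kb between pairs of the 7 genes (vertical axis) in each library by group, filled marks for replicates 1 and 2 and open marks for replicate 3, with a bar for the mean, and grey lines between the tables. Hand2 to Gli3 lies at 2.18 to 3.28 in CD1 hindlimb and at 1.11 to 1.87 in CD1 forelimb, and Gli1 to Ptch1 at 0.422 to 0.498 in the null and 0.524 to 0.555 in wild type at e11.0.

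The lists around the 7 genes depended on the scaling at e11.0. Over all genes, 13.1% passed without rescaling, 4.73% higher and 8.41% lower. With the median-ratio scaling none of the Gli regulators or cilium genes passed, and the regulators of Shh held 3 higher genes and 1 lower. As deposited, of 6 co-receptors and binders 3 fell, with a median of -0.25, namely Cdon (-0.76 ± 0.09), Boc (-0.73 ± 0.09), both of which help Ptch1 to bind Shh, and the glypican Gpc3 (-0.29 ± 0.09). Of 4 genes for ligand release Scube1 fell (-0.63 ± 0.14). Of 9 Gli regulators 4 fell, with a median of -0.25: Sufu, which holds Gli proteins in the cytoplasm (-0.43 ± 0.12), Prkaca, a catalytic subunit of protein kinase A (-0.38 ± 0.09), Btrc, which marks Gli3 for cutting (-0.32 ± 0.08), and Kif7, a kinesin of the cilium tip (-0.27 ± 0.08). At the membrane Gpr161 fell (-0.36 ± 0.09) and Efcab7, which tethers the Evc complex at the cilium base, rose (0.44 ± 0.09), while 6 of the 8 transduction genes, Smo among them (-0.13 ± 0.07), did not pass. Of 12 cilium genes Ift140 (-0.30 ± 0.09) and Tctn1 (-0.31 ± 0.09) fell.

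Of the 13 limb targets, Hoxa13 (-0.90 ± 0.16), Sall1 (-0.59 ± 0.16) and Grem1 (-0.38 ± 0.09) fell and none rose, although the median of the list was 0.03. With the median-ratio scaling this list held 1 higher gene, Mycn (0.24, adjusted p = 0.0363, limma), and 1 lower. Of the 11 regulators of Shh and genes that act with it, the zinc finger factor Zbtb16 fell (-0.89 ± 0.16, from 19.97 to 10.2 CPM), and Wnt7a, the dorsal ectoderm signal that helps to keep Shh on, rose (0.63 ± 0.09, from 27.4 to 43.3 CPM). Wnt7a is also among the ectoderm markers that rose at this stage. Of 5 anterior genes Alx1 rose (0.57 ± 0.17) and Irx3 fell (-0.41 ± 0.11). The calls of Gpc3, Sufu, Btrc, Kif7, Ift140, Tctn1, Sall1 and Irx3 were lost under both scalings, and those of Prkaca, Gpr161 and Grem1 under median-ratio scaling. None of the called genes of these lists changed sign in any setting. Without single libraries the counts of lower genes ran from 2 to 4 for co-receptors, 0 to 8 for Gli regulators and 0 to 3 for limb targets. With the replicate number as a block, lower genes numbered 7 of 9 Gli regulators, 4 of 4 release genes, 4 co-receptors and 3 of 12 cilium genes. Of the transduction genes 2 were then lower and 1 higher, and of the regulators of Shh 2 were lower and 2 higher. The block also called more genes over the whole table, as given above, so these counts do not speak of the lists alone.

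By e11.5, none of the 7 genes passed the test between null and wild type hindlimb, while 10.8% of 13478 genes did (2.83% higher and 7.96% lower). Their median was -0.03, against -0.02 over all genes, and 3 of the 7 had an unadjusted limma p under 0.05, namely Gli1, Hand2 and Gli3. Over all libraries 0 of the 7 had groups apart (16.5% of all genes), and within each run 4 of the 7 did, Gli1 and Ptch1 higher and Hand2 and Gli3 lower (41.4% of all genes). The authors' deposited table calls 1 of the 7, where it calls 19.6% of all genes. Of all calls, 382 were higher and 1073 lower as deposited, 691 and 917 with the trimmed-mean scaling, and 743 and 919 with the median-ratio scaling. Whether the Pitx1 effects differ between e11.0 and e11.5 was not tested, because the 2 tables were normalized separately and hold different kinds of library.

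Gli1 came nearest to the threshold. It was at 47.9, 39.0 and 103 CPM in wild type and at 55.7, 49.2 and 124 in the null. Each null library was above the wild type library of the same number, and replicate 3 was the highest of both groups. The log2 difference was 0.27 ± 0.08 (adjusted p = 0.0637, limma), with 0.27 within replicates 1 and 2 and 0.26 within replicate 3. With the replicate number as a block it passed (adjusted p = 0.0162, limma), as it did with the trimmed-mean scaling (0.0411), the median-ratio scaling (0.0374) and without wild type replicate 1 (0.0330). It passed in no other fit without a single library, where the adjusted p reached 0.214 (limma). With replicates 1 and 2 alone it did not pass either (0.213). In the authors' deposited table Gli1 was 0.31 higher with an adjusted p of 0.00183, their only call among the 7 genes at this stage.

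Shh at e11.5 was at 19.1, 16.6 and 14.8 CPM in wild type and at 17.7, 19.3 and 12.9 in the null. The ranges overlap, and the difference was -0.03 ± 0.09 (adjusted p = 0.846, limma). Hand2 was at 238, 236 and 158 CPM in wild type and at 229, 218 and 138 in the null. It was lower within each run and overlapped across runs, a difference of -0.12 ± 0.05 that did not pass (adjusted p = 0.113, limma). Without null replicate 1 it was -0.15 with an adjusted p of 0.0384 (limma). It passed in no other fit without a single library, where the adjusted p reached 0.492.

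Gli3 was at 222, 224 and 241 CPM in wild type and at 209.6, 188 and 234 in the null, a difference of -0.13 ± 0.05 (adjusted p = 0.157, limma). Ptch1 was at 176 to 194 CPM in wild type and 182 to 199.8 in the null (0.08 ± 0.05, adjusted p = 0.339, limma). Gli2 was at 108 to 142 CPM in wild type and 108 to 139 in the null (-0.06 ± 0.05, adjusted p = 0.438, limma). Hhip was at 7.12 to 8.49 CPM in wild type and 5.88 to 9.95 in the null (-0.03 ± 0.15, adjusted p = 0.903, limma), 0.18 within replicates 1 and 2 and -0.46 within replicate 3. All 4 pairs of ranges overlap. The Hand2 to Gli3 ratio, 2.68 to 4.38 in wild type and 2.41 to 4.72 in the null, overlapped as well.

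Markers of other cell types were measured beside these values. Mesenchyme markers summed to 1824 to 2024 CPM in wild type and 1713 to 2117 in the null, and 3 of 8 rose. All 6 muscle markers, Myod1 and Myog among them, fell, with 3 to 6 lower without single libraries and 5 with either scaling. Of 8 endothelium markers 2 fell, with 0 to 2 without single libraries and 0 with the median-ratio scaling. Ectoderm markers summed to 313.6 to 366.2 CPM in wild type and 376.9 to 445.9 in the null, with no overlap. All 10 had values above 0, and 1 passed, or 5 with either scaling. Their part in the values of the 7 genes was not tested.

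**Figure D4:**
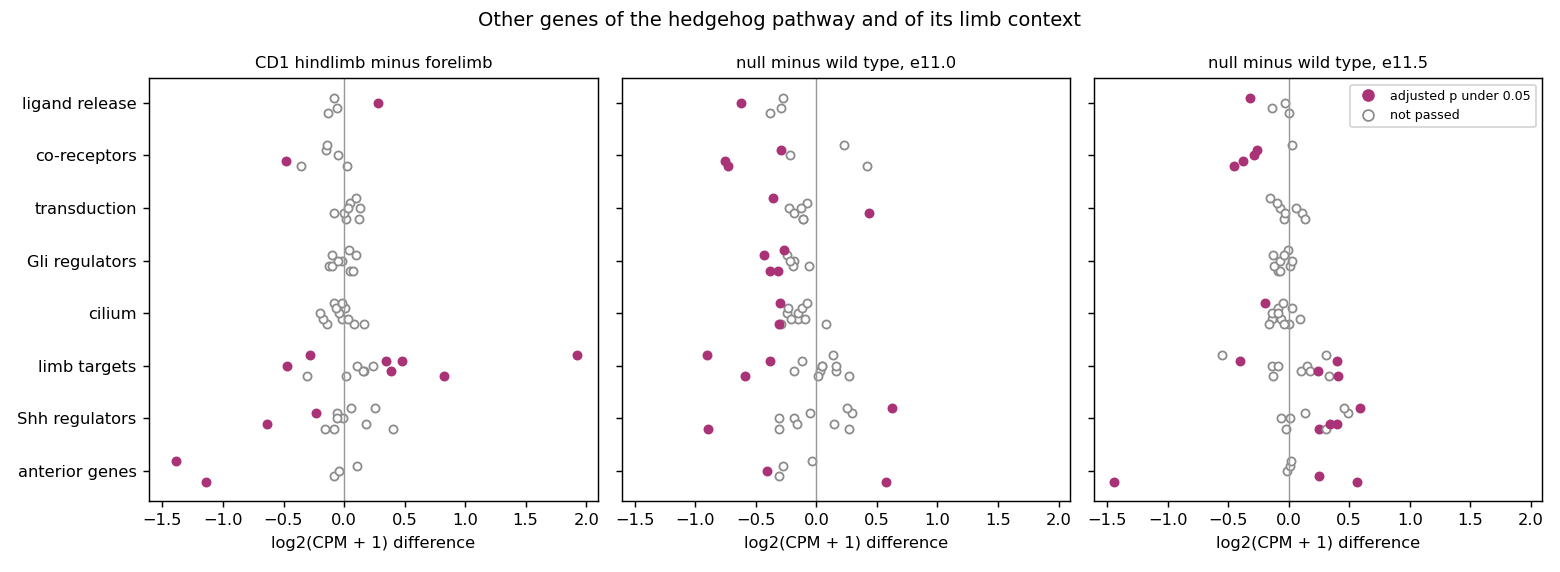
Differences on the log2(CPM + 1) scale (horizontal axis) of the measured genes of each list around the pathway (vertical axis), 1 circle per gene, by comparison, filled where the limma adjusted p was under 0.05. Of filled circles, the Gli regulators hold 4 at e11.0, all lower, and none in the other comparisons. The regulators of Shh hold 4 filled circles at e11.5, all higher.

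Around them, the co-receptors were again lower in the null at e11.5. Over all genes, 2.83% passed as higher and 7.96% as lower. Boc (-0.45 ± 0.09), Cdon (-0.37 ± 0.06), Gas1, which binds Shh at the membrane (-0.29 ± 0.06), and Gpc3 (-0.27 ± 0.05) fell, 4 of 5 measured, and none rose. Of 4 release genes Scube3 fell (-0.32 ± 0.04). None of 8 transduction genes or 9 Gli regulators passed, and of 12 cilium genes Ift140 fell (-0.20 ± 0.05), a call lost under both scalings. Of 13 limb targets Hoxd11 (0.41 ± 0.07), Grem1 (0.40 ± 0.06) and Tbx2 (0.24 ± 0.06) rose and Jag1 fell (-0.40 ± 0.11, lost with the block at an adjusted p of 0.0613, limma). Grem1 had fallen at e11.0, by 0.38.

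Of 11 regulators of Shh, 4 rose and none fell. Wnt7a (0.59 ± 0.08), Etv4, an Fgf-induced factor that keeps Shh out of the anterior bud (0.40 ± 0.08), Hoxd10 (0.34 ± 0.07) and Alx4 (0.25 ± 0.05) rose. Wnt7a is also the ectoderm marker that passed at e11.5. Of 6 anterior genes Alx1 (0.57 ± 0.12, from 2.76 to 4.86 CPM) also rose besides Alx4, and Pax9 fell (-1.44 ± 0.15, from 5.05 to 1.29 CPM). Without single libraries the counts ran from 1 to 7 higher for the regulators of Shh and from 1 to 4 lower for the co-receptors. For the limb targets they ran from 1 to 5 higher and from 0 to 3 lower. With the block 5 regulators of Shh were higher.

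How the 7 genes varied together was described over libraries after the mean of each table and run had been taken off. Shh and Hand2 had a Pearson r of 0.867 over the 18 libraries, with 0.986 in the CD1 table, 0.818 at e11.0 and 0.306 at e11.5. Hand2 and Gli3 had -0.992 in CD1, 0.974 at e11.0 and 0.706 at e11.5, so the sign was negative in CD1 alone. Each table holds 6 libraries, and taking off the mean of each run leaves fewer free values. Ptch1 and Gli1 had 0.952 in CD1, 0.283 at e11.0 and 0.637 at e11.5. These values carry the group differences and the shared libraries, and are given as descriptions. Among 12591 genes of sufficient level in all tables, those most like Shh over the 18 libraries were Sertad1 (0.884), Tcf19 (0.879), Hey1 (0.870), Hand2 (0.867) and Ppfibp2 (0.865). Nearest to Gli1 were Pcyt2 (0.935), Hoxa10 (0.920), Aacs (0.896), Wdr54 (0.888) and Fdft1 (0.876). For Gli3 they were Sh2b3 (0.971), Mef2d (0.967), Flt1 (0.954), Sema5a (0.953) and Aff3 (0.949).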

How the data were processed

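RNA-seq of 18 mouse limb bud libraries was used as 3 deposited tables, 1 per comparison. Per the submitters' processing notes, the authors used STAR, featureCounts and edgeR, with the build GRCm38 (mm10). Their versions and settings are not given in the sources used here. The authors gave each library's counts as CPM, which sum to 1000000 in each column, on genes above 0.5 CPM in at least 3 libraries. The authors' log2 fold change and log2 CPM, a likelihood-ratio score, and p-values, unadjusted and adjusted, stand beside them, per the file headers.

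The CPM were whole multiples of 1 read within 0.01 read for 100% of values, which gave the depths, and no count test was run. A separate limma-trend fit was made for each table (limma 3.58.1, R 4.3.3) on log2(CPM + 1), which understates the change of low genes, with terms for group and run, 3 residual degrees of freedom, two-sided tests, Benjamini-Hochberg adjustment over all genes of the table and a threshold of 0.05. The fit was also run on simulated data with 1 spread for all genes and no library effects beyond the run. That run does not bear on the shifts seen when single libraries are left out. Identifiers were matched to GENCODE release M 21 for 13513 of 13540, 13998 of 14027 and 13457 of 13478 genes. The 7 genes, the lists and the tests were chosen with earlier results of these data known. A few genes of the lists are not reported here and are left out of the lists' counts. Named list genes are those that passed, at most 8 per list and comparison, and the likeness lists hold the 5 genes of highest r. Wnt7a, Fgf8, Twist1 and Alx4 are each counted in more than 1 list.

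Libraries with the same number in both groups strayed from their group means in like ways, as did unlike numbers of the same run. Over genes, the correlations for numbers 1 to 3 were 0.69, 0.80 and 0.94 (CD1), 0.66, 0.64 and 0.86 (e11.0) and 0.73, 0.83 and 0.91 (e11.5). Every such pair was over 0.1, though these pairs also share a run. Replicate 1 of forelimb or wild type with replicate 2 of the other group, and 2 with 1, gave 0.75 and 0.85 (CD1). The same pairings gave 0.53 and 0.41 (e11.0) and 0.63 both ways (e11.5). These were about as high as the pairs of like number in that run for CD1, and lower in the other tables. Whether the number pairs libraries beyond the run was not tested. The replicate number was tried as a block in place of the run. Each changed call is given for the 7 genes, and changed counts for the lists where they bear on a result. Other alternatives were a pseudocount of 0.1, no run term, trimmed-mean and median-ratio scaling, a mean CPM of at least 1, replicates 1 and 2 alone, leaving out each library, and the authors' deposited test. Without molecular identifiers, reads are not single molecules, and depth bears on counting error alone.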

Additional observations from a re-analysis of the deposited data

How the results depend on the processing

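Of the 294 alternative values of the 7 genes over the 3 comparisons, 248 kept their direction and their side of the threshold, 18 lost a call, 9 gained one and 19 turned sign, none of them a called value. Without a term for the run no gene of the 7 passed in CD1 or at e11.0 (0 called, against 5 and 2), and the tables held 13, 5 and 11 calls at CD1, e11.0 and e11.5, against 795, 1843 and 1455. With replicates 1 and 2 alone 0 of the 7 passed at e11.0, and the tables held 471, 199 and 483 calls. The authors' deposited test held 1689, 2895 and 2644. With the replicate number as a block the e11.0 table held 3442 calls and 1 of the 7 passed at e11.5, Gli1, which was also the 1 called with either scaling and in the authors' deposited test. The block changed no other call of the 7 genes. Without single libraries, 4 to 5 of the 7 passed in CD1, 0 to 3 at e11.0 and 0 to 1 at e11.5, and the tables held 394 to 1191, 116 to 5273 and 433 to 2627 calls. For most of these shifts the cause was not tested. Fits on fewer libraries have fewer residual degrees of freedom. Leaving out a replicate 3 compares the same libraries as replicates 1 and 2 alone, so these settings repeat 1 contrast.

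Signs turned for values near 0. Gli2 in CD1 was -0.035 with replicates 1 and 2 alone and -0.035 to 0.086 without single libraries. Hhip at e11.0 was 0.002 with the trimmed-mean scaling, 0.028 with the median-ratio scaling and 0.018 in the authors' deposited table, and -0.125 to 0.031 without single libraries. Shh at e11.5 was 0.002 and 0.006 under these scalings, 0.050 with replicates 1 and 2 alone, and -0.108 to 0.050 without single libraries. Hhip at e11.5 was 0.000 with the median-ratio scaling, 0.182 with replicates 1 and 2 alone, and -0.204 to 0.182 without single libraries. The planned count test on reads recovered from the CPM was not run.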
